A study of Mus musculus with 6 samples.

Results

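The core pluripotency factors considered here are 10 mouse genes: Pou5f1, Sox2, Nanog, Klf4, Esrrb, Zfp42, Utf1, Lin28a, Tdgf1 and Tfap2c. They were taken as a fixed list of symbols and matched to the RefSeq accessions of the array table, which gave 1 row each to 9 of them among 25631 rows in all. No row matched Nanog, so Nanog was not analysed here. The samples were RNA from testes of male mice at postnatal day 9, hybridised to NimbleGen mouse expression arrays. There were 3 control arrays, from Cre-negative mice, and 3 Dmrt1 KO arrays, from Cre-positive mice, and both groups carried the label NGN-cre. The labels do not spell out which promoter drives that Cre, the targeted allele or the strain. Cre status follows genotype here, so effects of Cre itself and of the loss of Dmrt1 cannot be told apart.

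Pluripotency is the capacity of early embryonic cells to form every tissue of the body. In mouse it is held by a small circuit in which the transcription factors Pou5f1, Sox2 and Nanog bind together at their own genes and at many targets, with Klf4, Esrrb and Zfp42 around them. Germ cells share part of this circuit: primordial germ cells express several of these factors, and after birth Pou5f1, Utf1 and Lin28a are found in the early spermatogonia that precede meiosis. Dmrt1, a DM domain transcription factor of germ cells and Sertoli cells, is the targeted gene. The comparison asks how RNA of these factors differs between targeted and control testes.

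The arrays were alike in scale, with median intensity from 498.1 to 543.8 on a linear scale. Dmrt1 KO replicate 3 stood apart: Pearson's r of its log2 intensity with the other arrays, taken across rows that are not independent replicates, was 0.966 to 0.973, while all other pairs reached 0.978 or more. Each result below is therefore also given without that array where it matters. Dmrt1, measured by NM_015826, gave log2 intensities of 13.59, 13.49 and 13.21 in control replicates 1, 2 and 3 and of 11.98, 12.08 and 12.27 in Dmrt1 KO replicates 1, 2 and 3. All Dmrt1 KO arrays lay below all controls, with a log2 fold change of -1.32 ± 0.20 (SE, n = 3 arrays per group) and a limma adjusted p of 0.124. Where its probes lie relative to the deleted part is not known from the labels. The mean of each of the 13 germ cell, 14 Sertoli cell and 8 Leydig cell genes measured lay above a log2 intensity of 7.19. So did the mean of 16844 of all 25631 rows. That level is the 95th percentile of 1064 olfactory receptor rows, which served as a rough guide to background. Nothing in the labels ties each array to its own animal, and the p-values cover no more than array-to-array spread, which may be technical.

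Promoters of 4 members are shown because Pou5f1 and Sox2 were separated between the groups, Lin28a was higher on average, and Zfp42 was alike in both groups while its promoter was the only one among the members with an octamer. The sequences are those of RefSeq on GRCm38.p6, from 250 bases before to 50 bases after the annotated start, on the strand of the gene. Capitals mark matches, on either strand, to the octamer bound by POU factors (ATGCAAAT), to a SOX motif (ACAATG), to the core of the DMRT motif (ACANTGT, which overlaps the SOX motif where N is A), to an ESRR motif (AAGGTCA) or to a TFAP2 motif (GCCNNNGGC).
Pou5f1 promoter, chr17:35505782-35506081, plus strand: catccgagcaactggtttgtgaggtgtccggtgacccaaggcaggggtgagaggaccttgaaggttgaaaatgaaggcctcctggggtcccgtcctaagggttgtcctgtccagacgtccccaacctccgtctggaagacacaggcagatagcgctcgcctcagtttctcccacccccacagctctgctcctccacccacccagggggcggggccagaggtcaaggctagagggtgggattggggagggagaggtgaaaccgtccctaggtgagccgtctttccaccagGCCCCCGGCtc
Sox2 promoter, chr3:34649745-34650044, plus strand: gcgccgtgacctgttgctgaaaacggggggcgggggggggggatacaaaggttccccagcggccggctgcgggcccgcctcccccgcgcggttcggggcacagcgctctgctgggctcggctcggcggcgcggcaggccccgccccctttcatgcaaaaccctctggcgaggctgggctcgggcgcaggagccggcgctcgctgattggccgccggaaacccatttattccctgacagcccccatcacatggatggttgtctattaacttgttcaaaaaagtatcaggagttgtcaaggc
Zfp42 promoter, chr8:43306960-43307259, minus strand: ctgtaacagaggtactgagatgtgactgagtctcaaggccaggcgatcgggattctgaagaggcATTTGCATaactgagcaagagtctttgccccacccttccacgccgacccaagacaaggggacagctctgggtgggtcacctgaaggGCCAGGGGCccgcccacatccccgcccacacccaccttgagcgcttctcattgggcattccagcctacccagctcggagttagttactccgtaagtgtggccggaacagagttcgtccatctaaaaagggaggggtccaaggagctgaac
Lin28a promoter, chr4:134018767-134019066, minus strand: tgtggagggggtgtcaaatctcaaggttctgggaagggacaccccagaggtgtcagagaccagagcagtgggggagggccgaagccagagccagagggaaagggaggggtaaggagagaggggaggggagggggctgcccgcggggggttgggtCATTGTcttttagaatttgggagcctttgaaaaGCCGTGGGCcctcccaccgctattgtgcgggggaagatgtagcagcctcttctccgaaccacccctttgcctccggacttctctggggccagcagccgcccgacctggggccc

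RefSeq lists a second Pou5f1 promoter, not printed, with a SOX match 158 bases before its start. In the Pou5f1 window shown the capitals mark a TFAP2 match downstream of the start, in the Zfp42 window an octamer 186 bases before the start and a TFAP2 match 100 bases before it, and in the Lin28a window a SOX match 96 bases and a TFAP2 match 63 bases before the start. The Sox2 window held none of these 5 motifs. Of all 32851 promoters of this length, 1.74% held the octamer, 12.6% the SOX motif, 7.54% the DMRT core, 4.72% the ESRR motif and 16.6% the TFAP2 motif. Across the 12 promoters listed for 9 members (Tfap2c is named only), the octamer was found in 1, the SOX motif in 5, the DMRT core in 2, both of Nanog, the ESRR motif in 0 and the TFAP2 motif in 5. The 2 Nanog windows overlap, and their SOX and DMRT matches are the same site. Counted by gene, the SOX motif was found in 4 of the 9 members and the DMRT core in 1. A sixth motif, of KLF factors (GGGNGNGG), was found in 11 of these 12 promoters and in 49.5% of all promoters, and is not marked. These are matches of letters only, with no measurement of binding in these samples. By share of G and C bases, all but the second Pou5f1 promoter and that of Tdgf1 lay above the median of all promoters, 52.7%. The part of base composition in the motif counts was not tested.

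Pou5f1 and Sox2 had the largest differences among the 9 members, and both were higher in every Dmrt1 KO array than in any control. Pou5f1 (NM_013633), the POU domain factor that gives pluripotent and early germ cells their identity, gave log2 intensities of 12.00, 10.96 and 12.62 in control replicates 1, 2 and 3 and of 13.20, 13.30 and 13.31 in the Dmrt1 KO replicates. The controls spanned 1.66 on the log2 scale and the Dmrt1 KO arrays 0.12, so most of the spread lay in the controls. Its mean was 2.67-fold higher (log2 fold change 1.41 ± 0.39, SE, 95% interval 0.52 to 2.31). The row did not pass (limma adjusted p = 0.314 over all rows), and without control replicate 2, the lowest array, the log2 fold change was 0.97, against 1.79 without control replicate 3.

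Sox2 (NM_011443), the HMG box partner of Pou5f1 at shared target sites, gave log2 intensities of 6.80, 6.30 and 6.30 in the control replicates and of 7.55, 7.64 and 7.65 in the Dmrt1 KO replicates. Its controls lay below the background guide and its Dmrt1 KO arrays just above it. The mean was 2.22-fold higher (log2 fold change 1.15 ± 0.21, SE, 95% interval 0.66 to 1.64), with a limma adjusted p of 0.185. On the scale of log2(value + 50), which damps differences at low intensity, it was 1.77-fold higher. Among all rows Sox2 ranked 84 by limma p, and Pou5f1 ranked 517. In bulk testis RNA, more cells of a type and more RNA per cell cannot be told apart.

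**Figure D1:**
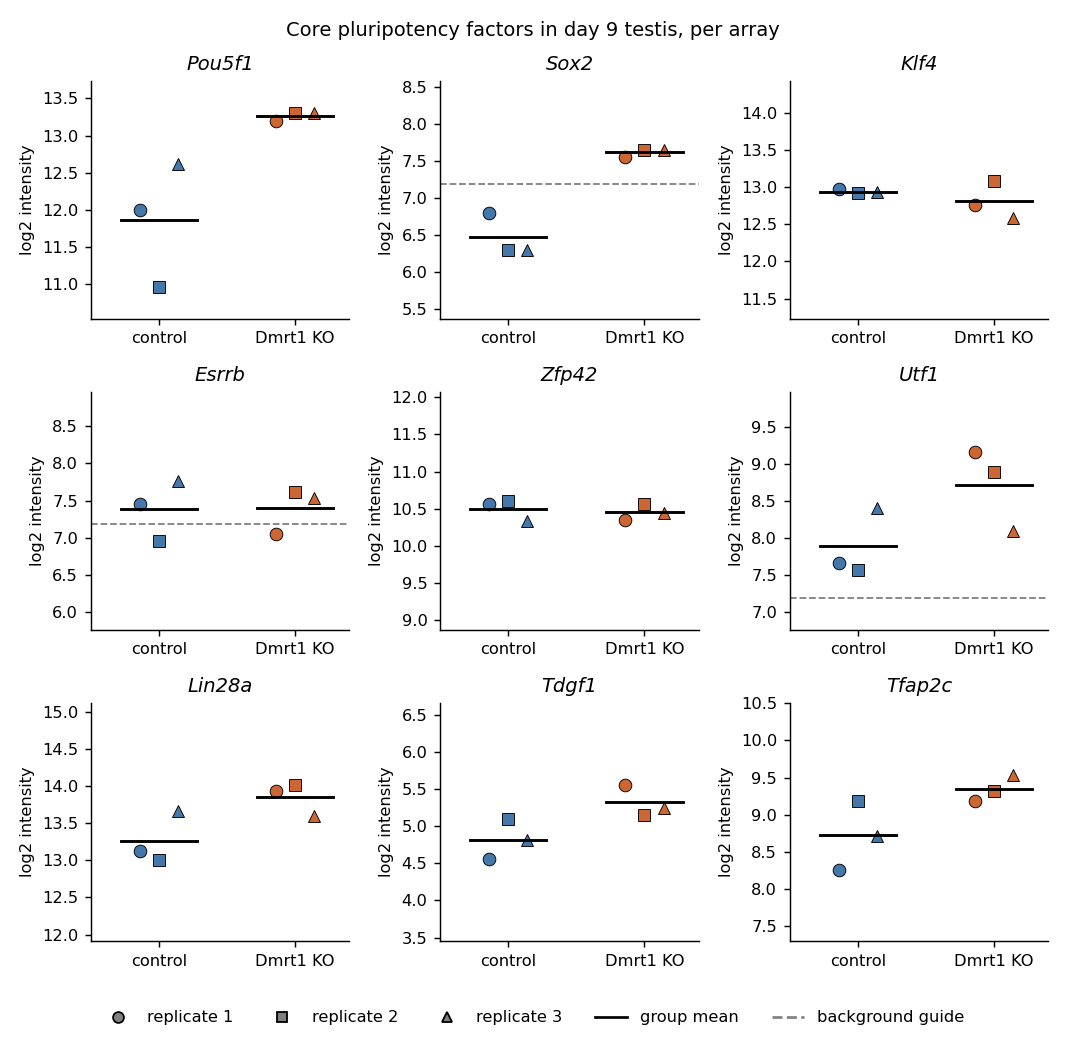
Log2 intensity of the 9 measured core pluripotency factors in each array, with controls in blue and Dmrt1 KO arrays in orange, a marker shape for each replicate, a bar at each group mean and a dashed line at the background guide of 7.19 where it falls in the panel. Every panel spans the same log2 range, and the groups separate for Pou5f1, Sox2 and, below the guide, Tdgf1.

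Klf4, Esrrb and Zfp42, the further transcription factors of the circuit, had log2 fold changes within 0.13 of 0. Klf4 (NM_010637), a zinc finger factor used in reprogramming that Sertoli cells also express, gave log2 intensities of 12.97, 12.92 and 12.93 in the controls and of 12.76, 13.08 and 12.58 in the Dmrt1 KO replicates. The controls agreed within 0.05 and the Dmrt1 KO arrays lay on both sides of them, with a log2 fold change of -0.13 and a 95% interval from -0.60 to 0.34. Zfp42 (NM_009556), a zinc finger gene used as a marker of embryonic stem cells under the name Rex1, had values of 10.57, 10.61 and 10.33 in the controls and of 10.35, 10.57 and 10.44 in the Dmrt1 KO arrays. The groups interleaved, and the log2 fold change of -0.05 had an interval from -0.49 to 0.40.

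Esrrb (NM_011934), an orphan nuclear receptor of the naive pluripotent state, gave log2 intensities of 7.46, 6.95 and 7.77 in the controls and of 7.05, 7.61 and 7.54 in the Dmrt1 KO replicates. Its values lay around the background guide, above it in 4 of 6 arrays, and the groups overlapped. The Esrrb log2 fold change was 0.01 with an interval from -0.62 to 0.64, so a difference of the size seen for Sox2 lies outside it. The intervals of Klf4 and Zfp42 exclude that size too. Limma adjusted p was 0.891 for Klf4, 0.963 for Zfp42 and 0.996 for Esrrb.

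The members known from early germ cells, Utf1, Lin28a and Tfap2c, had higher means in the Dmrt1 KO arrays with overlapping groups. Utf1 (NM_009482), a chromatin-associated factor of embryonic stem cells and undifferentiated spermatogonia, gave log2 intensities of 7.67, 7.57 and 8.41 in the controls and of 9.16, 8.89 and 8.10 in the Dmrt1 KO replicates. Dmrt1 KO replicate 3 fell below control replicate 3, and the mean was 1.78-fold higher (log2 fold change 0.83 ± 0.34, SE, limma adjusted p = 0.509). Without Dmrt1 KO replicate 3 the Utf1 log2 fold change was 1.14, with an adjusted p of 0.209 in limma.

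Lin28a (NM_145833), an RNA binding protein that blocks maturation of let-7 microRNAs, gave log2 intensities of 13.13, 13.01 and 13.66 in the controls and of 13.94, 14.02 and 13.60 in the Dmrt1 KO replicates. Here too Dmrt1 KO replicate 3 lay just below control replicate 3. The mean was 1.50-fold higher (log2 fold change 0.59 ± 0.24, SE, limma adjusted p = 0.512). Tfap2c (NM_009335), an AP-2 factor needed to form primordial germ cells, had values of 8.26, 9.19 and 8.71 in the controls and of 9.18, 9.32 and 9.54 in the Dmrt1 KO arrays. The lowest Dmrt1 KO array lay just under the highest control, and the mean was 1.54-fold higher (log2 fold change 0.63 ± 0.27, SE, limma adjusted p = 0.525). Without control replicate 1, the lowest array, the Tfap2c log2 fold change was 0.39.

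Tdgf1 (NM_011562), the cell surface co-receptor of Nodal also called Cripto, was below the background guide in all 6 arrays. Its log2 intensity was 4.56, 5.10 and 4.81 in the controls and 5.55, 5.15 and 5.25 in the Dmrt1 KO replicates. The groups did not overlap, yet the gap between the highest control and the lowest Dmrt1 KO array was within the spread of either group. The log2 fold change was 0.49 ± 0.22 (SE, limma adjusted p = 0.542) and 0.20 with log2(value + 50), so no level of Tdgf1 can be read from these arrays.

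**Figure D2:**
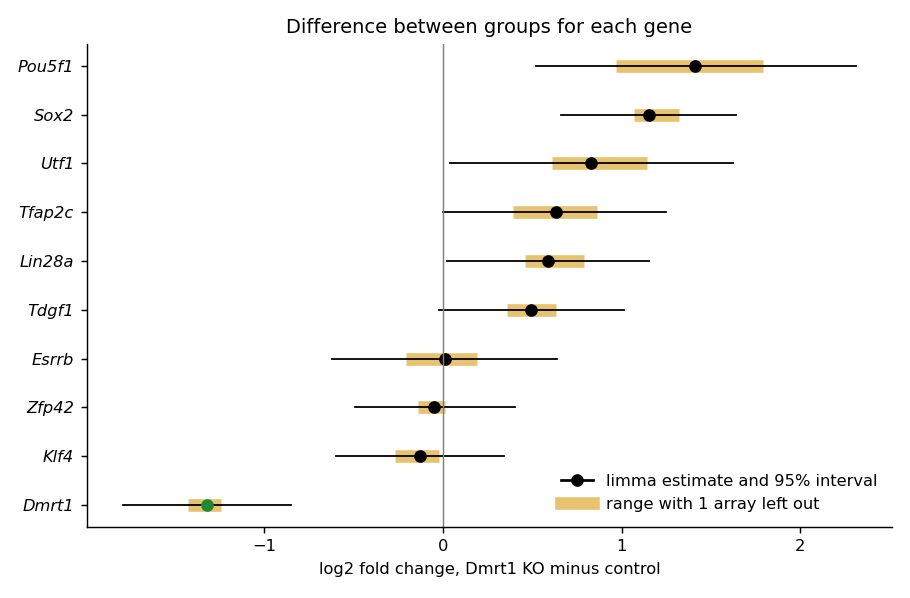
Log2 fold change of each measured member and of the targeted gene Dmrt1, Dmrt1 KO minus control, with limma's 95% interval as a line and the range over the fits with 1 array left out as a yellow bar. Pou5f1 (1.41) and Sox2 (1.15) lie highest, and the intervals of Tdgf1, Esrrb, Zfp42 and Klf4 include 0.

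Counted together, 0 of the 9 measured members passed a limma adjusted p of 0.05, where 0.0312% of all rows passed, 0.0273% higher and 0.0039% lower. At an unadjusted p of 0.05, limma gave 5 members higher (Pou5f1, Sox2, Utf1, Lin28a and Tfap2c) and 0 lower, where 4.41% of all rows were higher and 5.1% lower. The groups did not overlap in 3 members, all higher in the Dmrt1 KO arrays, where 6.8% of all rows were separated in that direction and 8.54% in the other. The same shares over all rows are the background for the counts of the other lists below. The median log2 fold change of the members was 0.59, against -0.02 over all rows. The members were listed with earlier results on these arrays known, so these counts describe the list and do not test it. Measured from the control mean, the median of the members stood at 0.67 and 0.60 in Dmrt1 KO replicates 1 and 2 and at 0.34 in replicate 3, the least correlated array. In control replicates 1, 2 and 3 it stood at 0.03, -0.17 and -0.01. Without control replicate 1 the median log2 fold change was 0.39.

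The arrays also fall into 3 groups by the start of the array number in their titles, and 2 of these groups hold both genotypes. Pou5f1 differed by 1.20 on the log2 scale in the first and 1.51 in the second, Sox2 by 0.75 and 1.35, Utf1 by 1.49 and 0.90, Lin28a by 0.81 and 0.68, and Tfap2c by 0.93 and 0.37. All of these were positive. When array number groups entered the fit as blocks, which leaves Dmrt1 KO replicate 3 without weight, the limma adjusted p was 0.310 for Pou5f1, 0.169 for Sox2 and 0.236 for Utf1. Klf4 (-0.20 and 0.15), Zfp42 (-0.22 and 0.10) and Esrrb (-0.41 and 0.25) turned sign between the 2 groups.

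The members did not vary alike within the controls. Control replicate 3 was the highest control for Pou5f1, Utf1, Lin28a and Esrrb, and control replicate 2 the lowest for these 4, whereas control replicate 2 was the highest control for Tfap2c and Tdgf1. Likeness to Pou5f1 was measured over all 6 arrays as the root mean square distance between log2 profiles, each centred on its own mean. Among 17276 other named genes the median distance was 0.91. Sox2 lay at 0.51 (rank 162), Utf1 at 0.54 (rank 246) and Lin28a at 0.54 (rank 253), while Klf4 and Zfp42 both lay at 0.92, beyond that median.

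The nearest profile to that of Pou5f1 belonged to Tnfrsf8, the TNF receptor family gene that encodes CD30, at a distance of 0.20. Tnfrsf8 gave log2 intensities of 6.27, 5.34 and 6.71 in the controls and of 7.80, 7.61 and 7.99 in the Dmrt1 KO replicates, so its controls lay below the background guide and its Dmrt1 KO arrays above it. Its log2 fold change was 1.69 ± 0.35 (SE, limma adjusted p = 0.205), and 1.17 with log2(value + 50). Next came Dsg2, a desmosomal cadherin (0.27, log2 fold change 1.13), Mat1a, a methionine adenosyltransferase (0.29, 1.78), Tmem40, a transmembrane protein gene (0.30, 0.89), and Dio3, a thyroid hormone inactivating deiodinase (0.30, 1.32). None of the 5 passed the adjusted threshold, and all but Dsg2 had control means below the guide. Tmem40 lay below it in all arrays and Dio3 in all but 1, and with log2(value + 50) Mat1a differed by 1.34, Dio3 by 0.83 and Tmem40 by 0.54. Without control replicate 2 the log2 fold change of Dsg2 was 0.70 and that of Tmem40 0.57.

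**Figure D3:**
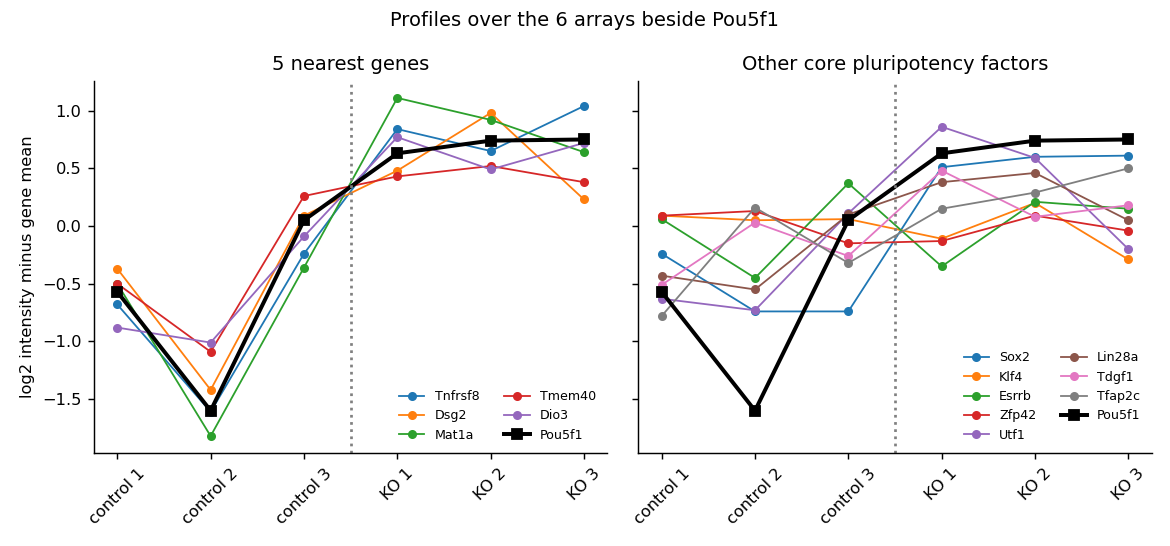
Log2 intensity minus the mean of each gene over the 6 arrays, for Pou5f1 in black with its 5 nearest genes (left) and with the other members (right), where lines join the values of a gene and the order of arrays within a group has no meaning. The nearest genes share the low value of Pou5f1 in control replicate 2, and Klf4, Zfp42 and Esrrb show no step between the genotypes.

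Lin28a and its close relative Lin28b differed in opposite directions. Lin28b, which also blocks let-7, gave log2 intensities of 12.88, 12.63 and 12.72 in the controls and of 12.01, 12.26 and 11.57 in the Dmrt1 KO replicates. Its Dmrt1 KO arrays all lay below the controls, with a log2 fold change of -0.80 ± 0.23 (SE, limma adjusted p = 0.352), or -0.61 without Dmrt1 KO replicate 3. The log2 ratio of Lin28a to Lin28b within each array, which no scaling of an array can alter, was -0.27, -0.14 and 0.42 in the controls around their own mean and 1.41, 1.23 and 1.51 in the Dmrt1 KO arrays. The ratio was 2.61-fold higher in the Dmrt1 KO arrays, with a two-sided exact permutation p of 0.1, the smallest that 3 against 3 arrays can give. This pair was chosen after its values were seen, so the p-value describes the separation and does not test it.

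**Figure D4:**
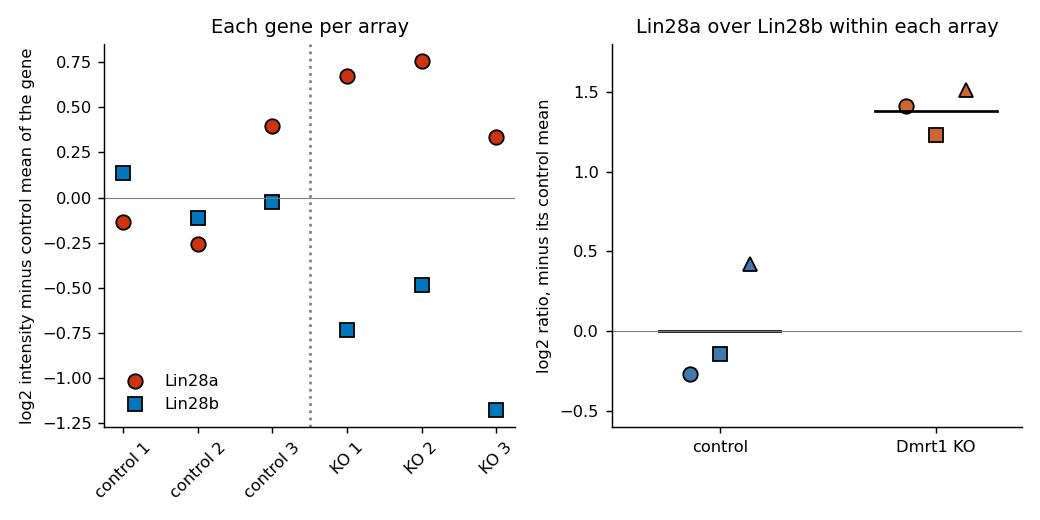
Lin28a (red circles) and Lin28b (blue squares) in each array as log2 intensity minus the control mean of the same gene (left), and the log2 ratio of the 2 genes within each array minus its control mean, with bars at group means (right). The ratio lies at 1.23 or more in all Dmrt1 KO arrays and at 0.42 or less in all controls.

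The let-7 pathway list, which includes Lin28b, had no common direction. Of its 14 measured genes 0 passed, and at an unadjusted p of 0.05 in limma 2 were higher and 1, Lin28b itself, lower, and the median log2 fold change was -0.09. Hmga2, a chromatin protein gene that let-7 represses, had a log2 fold change of 0.62 ± 0.23 (SE, adjusted p = 0.449) and the RNA binding protein gene Igf2bp2 of 0.50 ± 0.20 (0.503). In both genes all Dmrt1 KO arrays lay above all controls.

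Partner transcription factors of the circuit differed in both directions. Of 19 measured, 1 passed the adjusted threshold, and the median log2 fold change was -0.09, with 3 higher and 2 lower at an unadjusted p of 0.05. Nr5a2, an orphan nuclear receptor that can stand in for Pou5f1 in reprogramming and that granulosa cells also express, rose by a log2 fold change of 2.37 ± 0.24 (SE, limma adjusted p = 0.0410). Its log2 intensity was 10.40, 9.86 and 10.22 in the controls and 12.40, 12.85 and 12.33 in the Dmrt1 KO replicates. The Nr5a2 call was lost without any 1 of the control arrays or without Dmrt1 KO replicate 1 or 2, with an adjusted p from 0.139 to 0.339 and a log2 fold change from 2.21 to 2.49. The homeobox genes Otx2 (0.96 ± 0.28) and Gbx2 (0.77 ± 0.29) had control means below the background guide, and Otx2 stayed below it in all arrays.

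Among 24 measured target and marker genes of pluripotent cells 21 had a log2 fold change above 0, with a median of 0.35. Of all 25631 rows 12314 were above 0. None of the 24 passed the adjusted threshold in limma. At an unadjusted p of 0.05 in limma 7 were higher and 1 lower, where 4.41% of all rows were higher and 5.1% lower. Dppa3, a protector of maternal methylation marks in the early embryo that primordial germ cells also express, gave log2 intensities of 8.11, 8.25 and 9.13 in the controls and of 11.21, 11.42 and 10.50 in the Dmrt1 KO arrays (log2 fold change 2.54 ± 0.35, SE, adjusted p = 0.0830). Cdh1, the epithelial cadherin of embryonic stem cells and early spermatogonia, differed by 2.67 ± 0.37 (0.0830), Dppa2 by 2.19 ± 0.26 (0.0631) and Dppa5a by 1.54 ± 0.21 (0.0830), each with no overlap between groups. Without Dmrt1 KO replicate 3, Dppa2, Dppa3 and Cdh1 passed, with adjusted p of 0.00562, 0.0217 and 0.0238 in limma. All 4 differences are larger than that of any measured core factor. Dppa2 differed by 1.66 with log2(value + 50), its controls being under the background guide. Cldn4 (1.95), Krt18 (1.79) and Pax8 (1.14), of the epididymis and rete list below, were higher on the same arrays. Which cells gave the Cdh1 signal was not tested.

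Pathways that act on the circuit from outside showed no member past the threshold. For the LIF pathway, which sustains embryonic stem cells through gp130 and Stat3, the median log2 fold change of 9 genes was -0.09, and 0 were called at an unadjusted p of 0.05. Its genes with the smallest p were the receptor genes Lifr (-0.39 ± 0.24, SE) and Il6st (0.30 ± 0.18), the kinase gene Pim3 (-0.23 ± 0.19) and the feedback inhibitor Socs3 (0.21 ± 0.25). For the Nodal pathway, in which Tdgf1 acts, the median of 17 genes was -0.04, with 0 higher and 1 lower at an unadjusted p of 0.05. The lower gene was Lefty2, an inhibitor of Nodal (-1.18 ± 0.33, limma adjusted p = 0.319, and -0.76 with log2(value + 50)). Gdf1 (-0.49), Gdf3 (0.83) and Cer1 (0.50), ligand and antagonist genes of that pathway, lay below the background guide in all arrays.

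**Figure D5:**
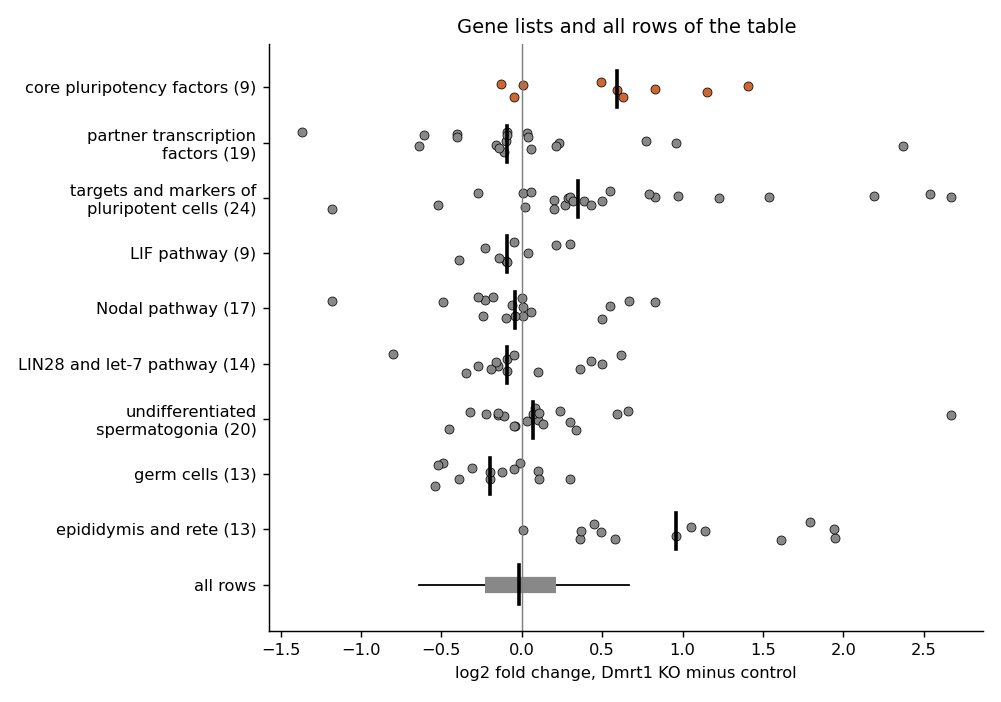
Log2 fold change, Dmrt1 KO minus control, of each measured gene in 9 lists (dots, with the number measured in brackets and a vertical bar at the median), and of all rows at the bottom (bar from the 25th to the 75th percentile, line from the 5th to the 95th). The core pluripotency factors (median 0.59) and the targets and markers (0.35) lie to the right of all rows (-0.02), as does the epididymis and rete list (0.96).

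Markers of other cells in the testis were measured on the same arrays. Summed linear intensity over the 13 germ cell genes was 178121 to 192656 in the controls and 141045 to 190576 in the Dmrt1 KO arrays, with a median log2 fold change of -0.20, and 0.01 without Dmrt1 KO replicate 3. For 20 genes of undifferentiated spermatogonia the sum was 63742 to 93308 in the controls and 85252 to 95648 in the Dmrt1 KO arrays, with a median of 0.07. Itgb1, the brightest gene of the list (log2 intensity 14.78 to 15.44), weighed most in that sum. In that list Cdh1, Upp1 (0.66 ± 0.24, SE) and Thy1 (0.59 ± 0.22) were higher and Nanos3 (-0.45 ± 0.25, or -0.21 without Dmrt1 KO replicate 3) lower on average, none past the threshold. Of 15 primordial germ cell genes 0 passed, the median was -0.04, and beside Dppa3 the meiotic entry gene Stra8 stood at -1.63 ± 0.27, Pecam1 at 0.62 ± 0.23 and the chemokine receptor gene Cxcr4 at 0.53 ± 0.21.

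The epididymis and rete list was higher beside the members: all 13 genes had a log2 fold change above 0, with a summed intensity of 3196 to 5340 in the controls and 6532 to 11841 in the Dmrt1 KO arrays. Their log2 fold changes ran from 0.01 to 1.95, and 6 of the 13 had a mean below the background guide. Within the list Cldn4 stood at 1.95, Defb1 at 1.94, Krt18 at 1.79 and Pax8 at 1.14, none past the adjusted threshold. Defb1 had both group means below the guide and differed by 1.16 with log2(value + 50). Without Dmrt1 KO replicate 3 Cldn4 passed (log2 fold change 2.11, limma adjusted p = 0.0299), and Defb1 stood at 1.09 without Dmrt1 KO replicate 2. The median of the list in Dmrt1 KO replicates 1, 2 and 3 was 1.11, 1.05 and 0.16 above the control mean. In control replicates 1, 2 and 3 it stood at 0.25, -0.26 and -0.13, so Dmrt1 KO replicate 3 lay below control replicate 1. Crisp1 overlapped between groups, with log2 intensities of 9.70, 4.11 and 6.49 in the controls and 9.73, 10.96 and 4.46 in the Dmrt1 KO replicates. The median of the members was also lowest in Dmrt1 KO replicate 3, at 0.34 against 0.67 and 0.60. In replicates 1, 2 and 3, Utf1 was 1.27, 1.01 and 0.21 and Lin28a 0.67, 0.75 and 0.34 above the control mean, while Pou5f1 was 1.34, 1.45 and 1.46 and Sox2 1.09, 1.18 and 1.19 above it. Of the 13 oocyte genes 10 were above 0, and 6 of the 13 had a mean below the guide. The summed intensity of the 13 was 2237 to 2845 in the controls and 4390 to 7936 in the Dmrt1 KO arrays. All 8 Leydig cell genes were above 0 (75706 to 97235 in the controls, 108539 to 124506 in the Dmrt1 KO arrays), and 0 of 9 macrophage genes were (12038 to 14502 and 10179 to 11176). Cyp17a1 (log2 intensity 14.39 to 15.55) and Hsd17b3 (14.55 to 15.27), the brightest Leydig cell genes, weighed most in the Leydig sum. None of the 8 reached an unadjusted p of 0.05 in limma. Their list median per array overlapped, at -0.01, -0.22 and 0.24 in the controls and 0.31, 0.09 and 0.57 in the Dmrt1 KO arrays. Endothelial genes, 6 of 7 above 0, summed to 12128 to 15861 and 16569 to 18023. Their list median per array overlapped as well, at 0.15, 0.14 and -0.33 in the controls and 0.16, 0.09 and 0.30 in the Dmrt1 KO arrays. Ranges overlapped for the 14 Sertoli cell genes (162197 to 173780 and 153697 to 194520) and the 6 peritubular myoid genes (15871 to 19020 and 11960 to 19858). The part of the epididymis and rete, oocyte, Leydig cell, endothelial and macrophage signals in the differences of the members was not tested.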

How the data were processed

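Each array carried Cy3-labelled testis RNA of 1 sample, per the labels. The authors deposited 1 linear intensity per RefSeq accession and array, made with RMA, per the submitters' processing notes. The RMA version and probe sequences are not given in the sources. Deposited intensity was turned to log2 with no further normalization. Accessions were matched without version to GRCm38.p6 symbols (17780 of 25631 rows, 17277 genes). Each member had 1 row. Where a gene had more (433 genes), its brightest row by mean was used.

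All rows were fitted by lmFit and eBayes of limma 3.58.1 under R 4.3.3, 3 control against 3 Dmrt1 KO arrays, with Benjamini-Hochberg adjustment over all rows and a threshold of 0.05. SEs are moderated (4 residual plus 3.96 prior degrees of freedom), and the number of arrays limits precision. The fit was tested on simulated data. Named genes are the members, Dmrt1, up to 4 genes per list with the smallest limma p, and the 5 nearest profiles to Pou5f1. Some genes that this rule names are not reported here. The members and lists were chosen with earlier results of these data known. Replicate numbers were given in accession order, so they only name arrays. Promoters and motifs came from RefSeq tables of GRCm38.p6. Alternatives tried were quantile normalization, array medians subtracted, log2(value + 50), leaving out the dimmest 50% of rows, eBayes with trend and robust settings, array weights, the array number group as a block, the mean of rows per gene, and each array left out. Figures were drawn with matplotlib 3.10.9 in Python 3.11.15.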

Additional observations from a re-analysis of the deposited data

How the results depend on the processing

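No paired analysis was possible because the labels give no replicate numbers. The count of members past the adjusted threshold stayed 0 in limma under each alternative fit and at an adjusted p of 0.1, and at an unadjusted p of 0.05 it was 5. The median log2 fold change of the members, 0.59, ran from 0.39 to 0.63 with 1 array left out and from 0.57 to 0.62 under the other fits, and was 0.81 within array number group 1 and 0.37 within group 2. Over alternative fits of all 6 or 5 arrays, adjusted p ran from 0.128 to 0.675 for Pou5f1 and from 0.0855 to 0.639 for Sox2. Esrrb, at 0.01, turned to -0.03 when array number groups entered as blocks, and ran from -0.21 to 0.19 with 1 array left out, below 0 when the array omitted was control 2 (-0.21), KO 2 (-0.10) or KO 3 (-0.06). Zfp42, at -0.05, ran from -0.14 to 0.01 with 1 array left out, reaching 0.01 when that was control 2 and 0.00 when it was KO 1. Of the 57 other named genes none turned sign in a tested fit, though Pou3f3, at 0.70, was -0.03 within array number group 2. Among the 57, 11 that did not pass in the main setting passed the threshold under at least 1 alternative, and Nr5a2 lost its call in 5 fits. Dim rows limit the members: Sox2, Esrrb, Utf1 and Tdgf1 drop out when the dimmest 50% of rows are removed. Over all rows 8 passed in the main setting, 81 with trend and robust settings, 60 with array weights, 52 without dim rows, 49 with the block, and 0 to 47 with 1 array left out.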

Other observations

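Relatives of the core factors were also measured, and none passed the adjusted threshold in limma. Of 12 measured POU genes the median log2 fold change was 0.24 (0.02 without Dmrt1 KO replicate 3), with 0 higher and 1 lower at an unadjusted p of 0.05. The mean of 9 of these 12 lay below the background guide. Pou4f1, known as a neuronal POU factor, gave log2 intensities of 9.50, 9.78 and 9.12 in the controls and of 8.63, 8.44 and 6.38 in the Dmrt1 KO replicates, with a log2 fold change of -1.65 ± 0.56 (SE, adjusted p = 0.412). Pou4f2 (-0.59), Pou3f3 (0.70) and Pou2f2 (0.41) had overlapping groups. Without Dmrt1 KO replicate 3 the log2 fold change was -0.94 for Pou4f1, 0.13 for Pou3f3 and 0.20 for Pou2f2. Among 17 SOX genes the median was -0.09, and Sox15, the SOX gene whose protein can pair with Pou5f1 in mouse embryonic stem cells, was the only one higher at an unadjusted p of 0.05. Sox15 had values of 6.90, 7.20 and 7.60 in the controls and of 8.15, 8.17 and 8.71 in the Dmrt1 KO arrays (log2 fold change 1.11 ± 0.26, adjusted p = 0.262, and 0.90 with log2(value + 50)). The endothelial factor genes Sox17 (-0.62, below the background guide) and Sox18 (-0.54) were lower in every Dmrt1 KO array, and Sox13 (0.45) was higher in every one.

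Of 15 KLF genes 0 passed at an unadjusted p of 0.05 in either direction, and the median was -0.07. Those with the smallest p were Klf17 (0.59, below the background guide), Klf13 (0.37), Klf16 (-0.29) and Klf7 (0.24). Among 9 other close relatives of the members Tfap2e (-0.85, below the guide) and Lin28b were lower at an unadjusted p of 0.05, and Tfap2d (-0.48) and Tfap2a (0.26) had overlapping groups.

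Genes that mark the first steps out of pluripotency, the germ layer list, centred on 0.03 (median of 21 measured), 14 of them with a mean below the guide. None passed the adjusted threshold, and 2 were higher and 1 lower at an unadjusted p of 0.05. Beside Otx2 and Sox17, Gsc (1.04, and 0.40 with log2(value + 50)) and Ttr (0.35) had the smallest p, and both lay below the guide in all arrays. Oocyte genes had a median of 0.57 over 13 measured, with 5 higher and 1 lower at an unadjusted p of 0.05 and none past the adjusted threshold. Of these 13, 6 had a mean below the guide. Nlrp5, a maternal effect gene, had a log2 fold change of 3.04 ± 0.51 (SE, limma adjusted p = 0.147), the homeobox gene Nobox of 2.32 ± 0.33 (0.0948), Ooep of 2.05 ± 0.47 (0.247) and Zar1 of 1.10 ± 0.32 (0.346). The lower gene was Npm2 (-0.53), and the list had no common direction. Zp1 (-0.08), Zp3 (0.05), Gdf9 (-0.13) and Oosp1 (0.03) differed little, with the means of Zp1 and Oosp1 below the guide. The control means of Nlrp5 and Zar1 lay below the guide, and with log2(value + 50) Nlrp5 differed by 2.61 and Zar1 by 0.76. Nlrp5 and Nobox passed without Dmrt1 KO replicate 3, with adjusted p of 0.00425 and 0.00461 in limma.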
